A study of Mus musculus with 16 samples.

Results

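A set of 8 genes used as markers of the fetal-like and repairing gut epithelium was followed through mouse colon organoids with and without Cdx2. The genes were Ly6a, Msln, Anxa1, Anxa3, Clu, Il33, Il1rn and Ankrd1, which are 8 of the 54123 genes that received a read count. They were chosen by name, and their estimated reads were summed over transcripts in each of 16 RNA-seq libraries. All 8 passed the filter on low counts together with 15289 genes in all. Ankrd1 held 0 to 7 reads per library in the Scramble-sgRNA groups and passed through the groups where it was higher, so that counts of members are also given without it.

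The libraries formed 8 groups of 2, from 2 regions, 2 lentiviral guides and 2 media. Organoids came from the first part of the proximal colon or the end of the descending (distal) colon of 8-week-old female mice, heterozygous for a Cre-inducible BrafV600E allele and for a tdTomato reporter, and no Cre treatment is named for any of these groups. They received Cas9 with Scramble-sgRNA, the control, or with Cdx2-sgRNA, and were selected with blasticidin. Each Cdx2-sgRNA line started from a single cell and carried frameshifts on both alleles, so that it is 1 clone, while no such step is described for Scramble-sgRNA. In month 4 of culture all groups spent 2 days in WENR-plus medium, which holds Wnt3a, EGF, Noggin and R-spondin, and then 3 days in WENR-plus or in WENR-minus medium, which lacks all of these factors, so that the effects of single factors cannot be told apart. The question was how loss of Cdx2, a transcription factor of intestinal identity, changes the response of proximal and distal epithelium to the withdrawal of these factors.

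As background, adult gut epithelium that is injured can pass through a state in which crypt stem cell genes fall and genes of the fetal gut return. This state is known for activity of YAP, the co-activator held back by the Hippo kinases, which binds DNA through TEAD factors. Ly6a (Sca-1) is a surface protein by which such cells are often sorted, Msln (mesothelin) is a surface glycoprotein best known from mesothelium and some carcinomas, and Clu (clusterin) is a secreted chaperone that marks the revival stem cells seen after injury. Anxa1 and Anxa3 are annexins, which bind membrane phospholipids when calcium is present. Il33 is an alarmin of the interleukin 1 family, Il1rn is the receptor antagonist that blocks interleukin 1 signaling, and Ankrd1 is a nuclear ankyrin-repeat protein widely used as a readout of YAP and TEAD.

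Promoter sequences are shown for the members whose RefSeq promoter was at hand (GRCm38.p6, the window around the annotated start). Among these, Ankrd1, Anxa1 and Il33 were each called higher after Cdx2 loss in proximal organoids in WENR-plus medium, while Il1rn was called lower. Anxa1 was not called in WENR-minus medium, and the WENR-plus call of Il33 was lost in several alternative fits. Sequences were matched for 4 of the 8 members, with 7 starts among them. Both strands were searched for the letters GGAATG (TEAD), TGANTCA (AP-1), TTTATG (CDX), CTTTGA (TCF/LEF) and for the interferon response element, and matches are in capitals. On the minus strand GGAATG reads CATTCC and TTTATG reads CATAAA, and no matches overlapped in the promoters shown. They are Ankrd1 at chr19:36119795-36120094 (minus strand), Anxa1 at chr19:20390622-20390921 (minus), the downstream start of Il33 at chr19:29945540-29945839 (plus) and the upstream start of Il1rn at chr2:24336610-24336909 (plus).
Ankrd1: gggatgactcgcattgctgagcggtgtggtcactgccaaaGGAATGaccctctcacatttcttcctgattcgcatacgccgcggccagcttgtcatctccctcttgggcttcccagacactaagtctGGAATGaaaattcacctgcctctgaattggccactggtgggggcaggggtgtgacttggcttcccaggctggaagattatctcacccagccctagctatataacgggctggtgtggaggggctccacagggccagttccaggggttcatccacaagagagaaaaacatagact
Anxa1: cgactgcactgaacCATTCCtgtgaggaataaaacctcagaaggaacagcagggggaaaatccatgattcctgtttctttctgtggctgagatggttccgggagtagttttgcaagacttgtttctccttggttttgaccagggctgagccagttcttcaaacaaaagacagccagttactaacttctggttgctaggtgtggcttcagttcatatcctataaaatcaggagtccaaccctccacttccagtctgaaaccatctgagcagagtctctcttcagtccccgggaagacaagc
Il33: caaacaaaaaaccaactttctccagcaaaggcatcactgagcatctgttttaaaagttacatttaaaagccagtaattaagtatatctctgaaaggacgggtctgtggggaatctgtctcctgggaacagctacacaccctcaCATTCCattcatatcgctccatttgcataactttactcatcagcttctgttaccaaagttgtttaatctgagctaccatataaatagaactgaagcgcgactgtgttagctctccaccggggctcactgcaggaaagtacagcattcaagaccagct
Il1rn: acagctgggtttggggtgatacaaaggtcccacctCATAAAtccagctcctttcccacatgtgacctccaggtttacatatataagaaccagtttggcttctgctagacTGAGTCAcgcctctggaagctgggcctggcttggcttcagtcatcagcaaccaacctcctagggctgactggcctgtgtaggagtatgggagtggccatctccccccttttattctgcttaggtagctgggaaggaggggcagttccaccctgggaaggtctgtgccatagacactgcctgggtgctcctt
The Ankrd1 promoter held GGAATG 2 times, which 1.36% of 32851 promoters of this length did, and those of Anxa1 and Il33 held it once, against 14.7% of promoters with at least 1 match. The Il1rn sequence held 1 AP-1 match (7.81% of promoters) and 1 CDX match (11.9%). Of the starts not shown, the upstream one of Il33 held 1 TEAD and 2 CDX matches. The window of Il1rn at chr2:24345121-24345420 held 1 TEAD match, and that at chr2:24345041-24345340 held no match, so that TEAD letters occur both in genes that rose and in the one that fell. These matches describe letters in a window and not sites in use.

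Libraries held between 12465194 and 18922143 reads. Values are given as reads, as CPM (reads scaled to the TMM library size, for comparing libraries) or as TPM (per length, for comparing genes). TMM factors were 0.656 to 0.804 in the 4 distal WENR-minus libraries and 0.964 to 1.31 in the other 12. Cdx2 itself kept 515 to 3269 reads in every library, and transcripts with frameshifts are counted like any other. Its level fell with Cdx2-sgRNA in proximal organoids, from 134 to 31.6 CPM in WENR-plus (log2 fold change -2.09 ± 0.21) and from 177 to 72.4 CPM in WENR-minus medium (-1.29 ± 0.20), while the distal values of -0.36 and -0.07 were not called, so that the transcript level does not check the distal labels. Epithelial markers (8 of 8 over 1 CPM) summed to 4051 to 18671 CPM, against 0.264 to 7.87 for fibroblast markers (Dcn, Thy1 and Lum at 0), 0 to 2.00 for endothelium (Emcn at 0), 0 to 0.296 for muscle (Actc1 at 0), 0.174 to 10.3 for mesothelium and 0.385 to 25.7 for immune cells (Adgre1 at 0). These are bulk samples, so that fewer cells of a type and less RNA per cell cannot be told apart.

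**Figure D1:**
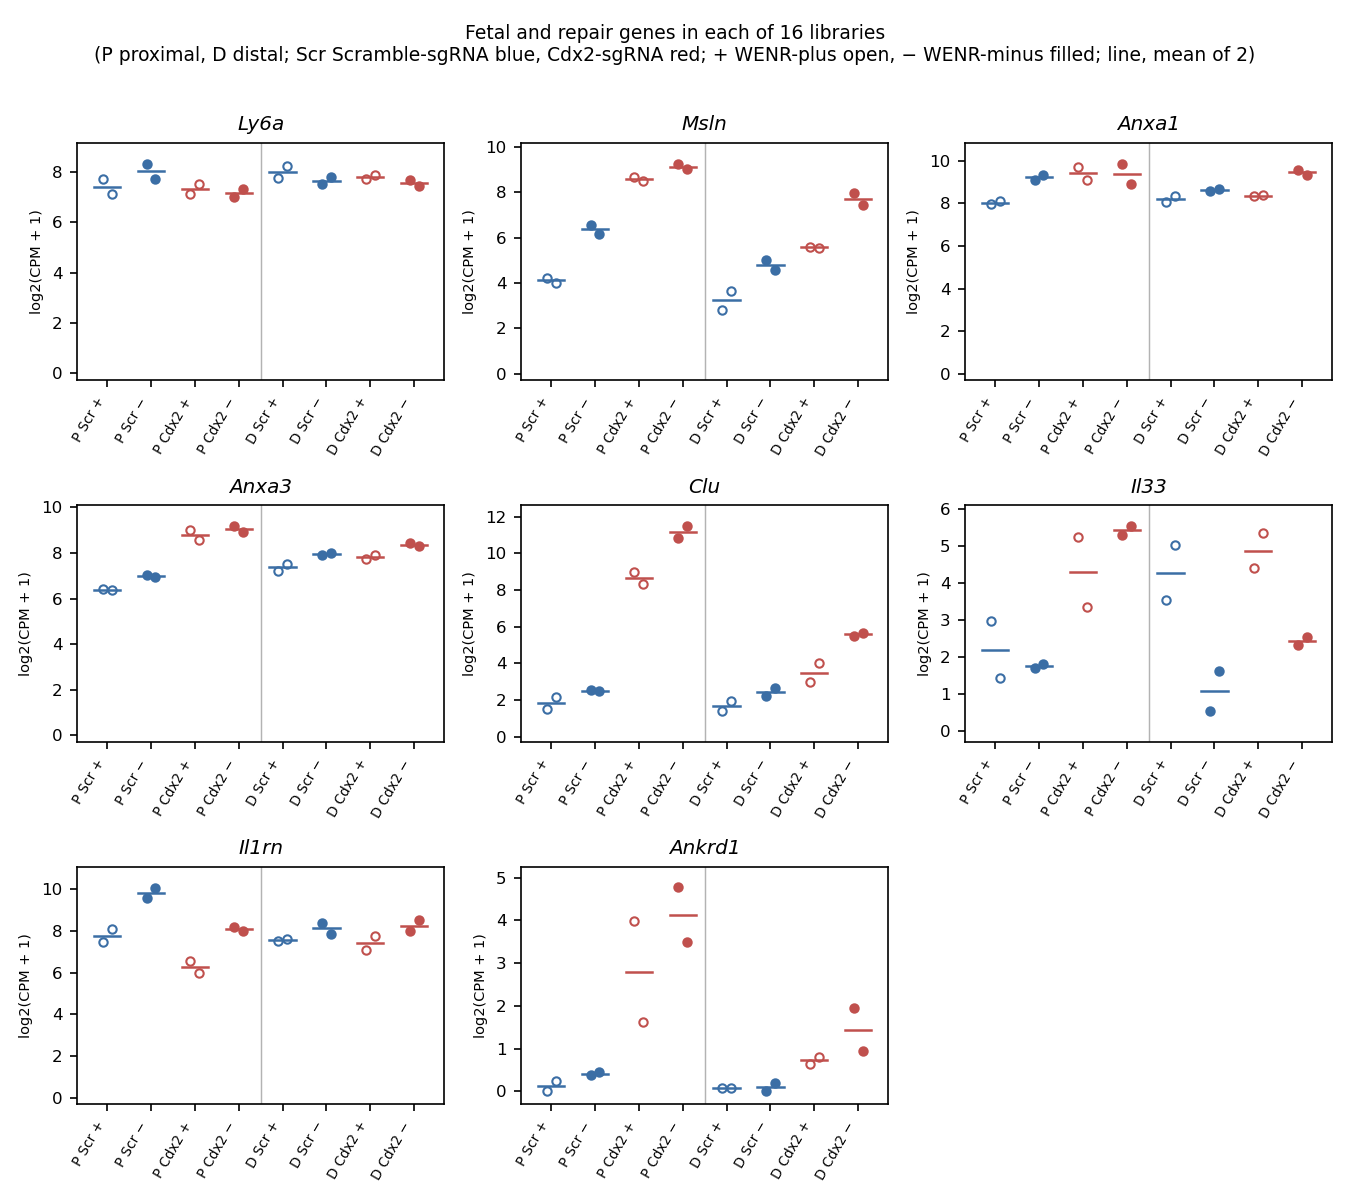
Each panel shows 1 gene as log2(CPM + 1) in the 16 libraries, with 2 points per group (open, WENR-plus; filled, WENR-minus; blue, Scramble-sgRNA; red, Cdx2-sgRNA) and a line at the mean. Clu, Msln and Ankrd1 were highest in the proximal Cdx2-sgRNA groups, whereas Ly6a spanned 128 to 322 CPM over all libraries and its neighbouring groups overlapped.

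The 8 genes covered a wide span of levels and did not share 1 pattern, as the plot of all libraries shows. By median TPM over the 16 libraries, Anxa1 (445), Ly6a (405), Anxa3 (397) and Il1rn (347) were abundant in organoids of every kind. Msln (51.8) was intermediate, and Clu (7.19), Il33 (5.27) and Ankrd1 (0.390) were low in most groups. Clu had the widest span, from 2.15 TPM in the lowest library to 3158 TPM in the highest. Msln was the gene whose 8 groups could be put in a full order, since the 2 libraries of each group did not overlap those of the next. That order ran in mean CPM from proximal Cdx2-sgRNA WENR-minus (561) and WENR-plus (378), through distal Cdx2-sgRNA WENR-minus (211), proximal Scramble-sgRNA WENR-minus (82.6), distal Cdx2-sgRNA WENR-plus (46.4) and distal Scramble-sgRNA WENR-minus (27.1), to Scramble-sgRNA WENR-plus from proximal (16.3) and distal (8.81) organoids. For Ly6a every group overlapped its neighbour in the order.

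Loss of Cdx2 in proximal organoids raised most of these genes by large factors and lowered Il1rn. In WENR-plus medium 6 of the 8 (5 of the 7 without Ankrd1) were called higher and 1 lower, where 15.9% of all genes tested were called in either direction (6.93% higher). In WENR-minus medium 5 (4 without Ankrd1) were called higher and 1 lower, against 21.2% of all genes (9.04% higher). Calls needed a log2 fold change beyond 1 in either direction and an adjusted p below 0.05 (edgeR quasi-likelihood test, Benjamini-Hochberg over all genes). A gene is said to be called or not called in that fit unless another fit is named. The median log2 fold change of the 8 was 2.42 in both media, beside -0.0495 in WENR-plus and -0.000325 in WENR-minus medium over all genes, and the low-count gene Ankrd1 did not set either median. In distal organoids Msln was called in WENR-plus medium (0.262% of all genes called, 0.137% higher), and Msln and Clu in WENR-minus medium (5.25%, 2.24% higher). With 2 libraries a group, all groups shared 1 estimate of spread, and the labels do not say which libraries came from the same mouse.

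**Figure D2:**
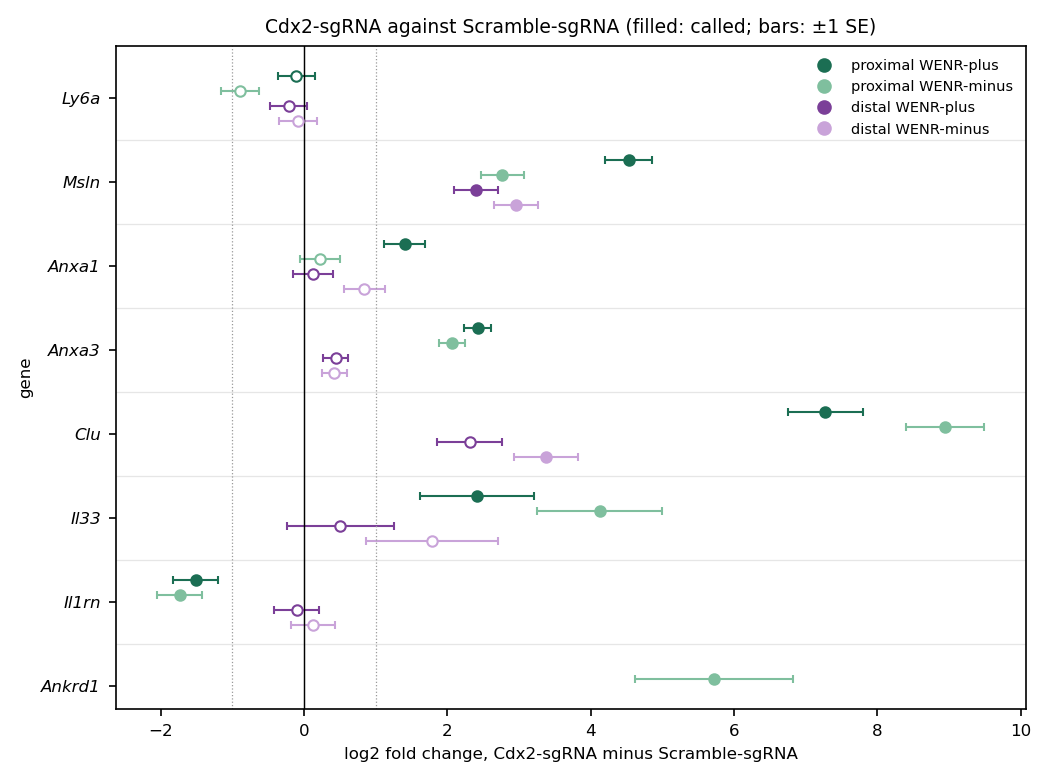
Log2 fold change of Cdx2-sgRNA against Scramble-sgRNA organoids for each gene, with bars of 1 standard error and filled symbols for called genes. Proximal comparisons are green and distal ones purple; Ankrd1 is drawn only for proximal WENR-minus, since the other Scramble-sgRNA groups held 3 reads or fewer. Clu stood at 7.27 and 8.94 in proximal and at 2.31 and 3.37 in distal organoids.

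Clu (chr14:65968483-65981547, plus strand) showed the largest change of the 8. Replicates 1 and 2 of proximal Scramble-sgRNA organoids had 40 and 58 reads in WENR-plus and 77 and 90 in WENR-minus medium. Proximal Cdx2-sgRNA organoids had 8595 and 6097 reads in WENR-plus and 24316 and 54117 in WENR-minus medium. Every proximal Cdx2-sgRNA library thus lay far above every other library. Distal Scramble-sgRNA libraries had 32 and 53 reads in WENR-plus and 47 and 75 in WENR-minus medium, and distal Cdx2-sgRNA libraries 120 and 287, then 528 and 585. Each distal Cdx2-sgRNA group also lay apart from the Scramble-sgRNA group in the same medium, at levels well under the proximal ones. Mean CPM in proximal organoids went from 2.67 ± 1.08 (SD, n = 2) to 410 ± 124 in WENR-plus medium, a log2 fold change of 7.27 ± 0.52 (SE; edgeR adjusted p = 5.12e-06). In WENR-minus medium it went from 4.73 ± 0.0576 to 2334 ± 747, a log2 fold change of 8.94 ± 0.55 (adjusted p = 1.02e-06). The distal change was 3.37 ± 0.45 in WENR-minus medium (adjusted p = 0.00283). In distal WENR-plus medium the value was 2.31 ± 0.45 with an adjusted p of 0.0766, and DESeq2 (2.32), the fit with a replicate block (2.29) and the fit without distal Cdx2-sgRNA WENR-plus replicate 1 (2.76) called it.

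Msln (chr17:25748613-25754378, minus strand) was the member called higher with Cdx2 loss in both regions and both media. Clu, Anxa3 and Ankrd1 also stood above Scramble-sgRNA, without overlap, in both regions and both media, but were not called in distal WENR-plus medium. Its reads in proximal Scramble-sgRNA libraries were 372 and 252 in WENR-plus and 1520 and 1363 in WENR-minus medium, against 6903 and 6726, then 8165 and 9768, in proximal Cdx2-sgRNA libraries. Distal Scramble-sgRNA libraries held 120 and 216 reads in WENR-plus and 411 and 316 in WENR-minus medium, against 815 and 871, then 2922 and 2087, after Cdx2 loss. No Cdx2-sgRNA group overlapped its Scramble-sgRNA group. The log2 fold changes were 4.53 ± 0.33 in proximal WENR-plus (adjusted p = 5.18e-06), 2.76 ± 0.30 in proximal WENR-minus (6.23e-05), 2.40 ± 0.30 in distal WENR-plus (0.0115) and 2.96 ± 0.30 in distal WENR-minus medium (0.00124). The distal WENR-plus call was lost when only the 4 libraries of that comparison were fitted (2.40, adjusted p = 0.24), and the value was 2.98 without distal Scramble-sgRNA WENR-plus replicate 2. Msln is also made by mesothelium. Other mesothelial markers (Upk3b, Lrrn4, Wt1, Nkain4, Gpm6a and Upk1b) summed to 0.174 to 2.59 CPM in the proximal Cdx2-sgRNA libraries, where Msln was highest. In all other libraries they summed to 0.645 to 10.3 CPM. These markers did not run together. Upk1b was at 0 in the proximal Cdx2-sgRNA libraries and reached 10.2 CPM elsewhere. Upk3b reached 0.793 CPM in the proximal Cdx2-sgRNA libraries and at most 0.334 CPM elsewhere, and Nkain4 was highest there, at 1.90 CPM. The source of the Msln reads was not tested.

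Ly6a (chr15:74994877-74998031, minus strand), the gene of the Sca-1 antigen, was not called in any of the 12 pairwise comparisons. Proximal Scramble-sgRNA libraries had 4392 and 2374 reads in WENR-plus and 5203 and 4110 in WENR-minus medium, and proximal Cdx2-sgRNA libraries 2420 and 3495, then 1727 and 3052. The groups overlapped in WENR-plus and were apart, with Cdx2-sgRNA the lower, in WENR-minus medium. There the log2 fold change was -0.89 ± 0.26 with an adjusted p of 0.0247, under the fold threshold, and it passed that threshold without proximal Scramble-sgRNA WENR-minus replicate 2 (-1.16) or without proximal Cdx2-sgRNA WENR-minus replicate 2 (-1.07). In WENR-plus medium it was -0.11 ± 0.26. Distal libraries held 2383 to 5589 reads with Scramble-sgRNA and 2090 to 4478 with Cdx2-sgRNA, and the distal values were -0.22 and -0.08. Of the distinct 31-base words of Ly6a transcripts, 31.9% occur in other genes, mainly Ly6c1, Ly6i and Ly6c2, so that the split of reads between these genes is uncertain. Ly6c1 itself had 3.79 to 143 CPM, and Ly6i and Ly6c2 stayed under 1 CPM in every library. In proximal WENR-minus medium, where Ly6a stood at -0.89, Ly6c1 was at 44.2 to 72.2 CPM with Scramble-sgRNA. With Cdx2-sgRNA it was at 3.79 to 8.14 CPM there. Whether this shift bears on the Ly6a value was not tested.

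The annexins differed from each other. Anxa3 (chr5:96793339-96845966, plus strand) had 1750 and 1390 reads in proximal Scramble-sgRNA WENR-plus and 2093 and 2371 in WENR-minus libraries, against 8918 and 7052, then 7806 and 9105, after Cdx2 loss. These groups were far apart, and the log2 fold changes of 2.42 ± 0.19 (adjusted p = 8.74e-06) and 2.07 ± 0.18 (adjusted p = 1.41e-05) had the smallest standard errors of the 8 genes. Distal libraries held 2926 to 3542 reads with Scramble-sgRNA and 3674 to 4509 with Cdx2-sgRNA, and the distal values of 0.44 and 0.42 were not called. Anxa1 (chr19:20373428-20390944, minus strand) had 5171 and 4695 reads in proximal Scramble-sgRNA WENR-plus libraries and 14570 and 10302 after Cdx2 loss, a log2 fold change of 1.40 ± 0.29 (adjusted p = 0.00507). In WENR-minus medium the Scramble-sgRNA libraries had 8860 and 12511 reads and the Cdx2-sgRNA libraries 12441 and 9030. Those groups overlapped, and the value was 0.22 ± 0.28. Distal Anxa1 had 5384 and 6145 reads in Scramble-sgRNA and 5620 and 6297 in Cdx2-sgRNA WENR-plus libraries, then 4968 and 5642 against 9055 and 7703 in WENR-minus medium. The last pair of groups was apart, at 0.84 ± 0.28 with an adjusted p of 0.0853. A gene on the same strand, Gm42603, overlaps Anxa3 and had 1.46 to 17.1 CPM.

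Il33 (chr19:29925114-29960718, plus strand) rose with Cdx2 loss in proximal organoids, with wide spread between replicates. Proximal Scramble-sgRNA libraries had 143 and 29 reads in WENR-plus and 37 and 49 in WENR-minus medium, and Cdx2-sgRNA libraries 636 and 174, then 518 and 876. The log2 fold change was 4.12 ± 0.87 in WENR-minus medium (adjusted p = 0.00436), where the groups were far apart. In WENR-plus medium it was 2.41 ± 0.80 (adjusted p = 0.0473), and this call was lost without proximal Cdx2-sgRNA WENR-plus replicate 1 (1.09, adjusted p = 0.38) or proximal Scramble-sgRNA WENR-plus replicate 2 (1.77, adjusted p = 0.23), with total-read scaling (adjusted p = 0.0605), with length-scaled counts (0.0582), with a replicate block (0.0513) and with only the 4 libraries compared (0.132). It was 3.78 without proximal Scramble-sgRNA WENR-plus replicate 1 and 3.09 without proximal Cdx2-sgRNA WENR-plus replicate 2. Distal Il33 had 215 and 589 reads in Scramble-sgRNA and 356 and 754 in Cdx2-sgRNA WENR-plus libraries, and 6 and 29 against 48 and 58 in WENR-minus medium. The distal values of 0.51 ± 0.74 and 1.79 ± 0.92 were not called, although the fit with no filter on low counts called the second.

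Il1rn (chr2:24336853-24351494, plus strand) was the member that fell. Proximal Scramble-sgRNA libraries held 3621 and 4577 reads in WENR-plus and 12277 and 20301 in WENR-minus medium, against 1603 and 1185, then 3918 and 4833, in Cdx2-sgRNA libraries. Neither pair of groups overlapped. The log2 fold change was -1.51 ± 0.32 in WENR-plus (adjusted p = 0.00582) and -1.73 ± 0.32 in WENR-minus medium (adjusted p = 0.00193). The first call was lost without proximal Scramble-sgRNA WENR-plus replicate 2 (-1.12, adjusted p = 0.052) or proximal Cdx2-sgRNA WENR-plus replicate 2 (-1.26, adjusted p = 0.054). Distal libraries held 3253 to 4259 reads with Scramble-sgRNA and 2378 to 4300 with Cdx2-sgRNA, and the distal values were -0.11 ± 0.31 and 0.12 ± 0.31.

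Ankrd1 (chr19:36111961-36120099, minus strand) was close to absent without Cdx2 loss. Its reads were 0 and 3 in proximal Scramble-sgRNA WENR-plus, 5 and 7 in proximal Scramble-sgRNA WENR-minus, 1 and 1 in distal Scramble-sgRNA WENR-plus and 0 and 2 in distal Scramble-sgRNA WENR-minus libraries. Proximal Cdx2-sgRNA libraries had 256 and 39 reads in WENR-plus and 354 and 193 in WENR-minus medium, and distal ones 10 and 14, then 34 and 11. All 8 Cdx2-sgRNA libraries were above all 8 Scramble-sgRNA libraries in reads. In proximal WENR-minus medium the log2 fold change was 5.72 ± 1.1 (adjusted p = 0.00254; also called when no filter on low counts was applied; 4.92 without proximal Cdx2-sgRNA WENR-minus replicate 1). In WENR-plus medium, where the Scramble-sgRNA group held 3 reads, the ratio of summed reads was 103 with an exact 95% counting interval of 34.9 to 502. The gene was called there (edgeR adjusted p = 0.00355), also when no filter on low counts was applied. It was not called when only the 4 libraries compared were fitted (adjusted p = 0.0503). The size of this change moved several-fold when single libraries of the 2 groups were left out. The distal ratios were 12.7 (3.16 to 111) in WENR-plus and 25.5 (6.66 to 217) in WENR-minus medium, with adjusted p of 0.702 and 0.0592; DESeq2 called the latter, and the fit with no filter called both. These intervals cover counting error only, and the replicates differ by more than counting error in proximal Cdx2-sgRNA WENR-plus organoids.

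Markers of other cell types stood at different levels in these proximal groups. In WENR-minus medium summed fibroblast markers were at 3.28 to 7.87 CPM with Scramble-sgRNA and at 0.264 to 0.594 CPM with Cdx2-sgRNA. The epithelial marker Epcam was at 1795 to 1874 and at 445 to 508 CPM, while the summed epithelial markers were at 14850 to 15340 and at 12216 to 13019 CPM. In WENR-minus medium the summed goblet cell markers (5 genes) were at 4769 to 5886 CPM with Scramble-sgRNA and at 44.8 to 50.4 CPM with Cdx2-sgRNA, and the summed colonocyte markers (6 genes) at 6669 to 9957 and at 517 to 1591 CPM. Within that sum Car1, a carbonic anhydrase, was at 5952 to 8710 CPM with Scramble-sgRNA and at 11.4 to 19.9 CPM with Cdx2-sgRNA, whereas the keratin Krt20 overlapped, at 579.9 to 995 and at 489 to 1572 CPM. In distal WENR-minus organoids goblet markers were at 4356 to 8115 and 4857 to 12819 CPM, and colonocyte markers at 7043 to 11109 and 14895 to 15979 CPM. The summed immune markers (7 genes) were at 0.730 to 1.55 CPM with Scramble-sgRNA and at 15.9 to 25.7 CPM with Cdx2-sgRNA in proximal WENR-minus medium, where most came from Csf1r (261 reads in replicate 1 and 107 in replicate 2) and Cd68 (73 and 188 reads), while Ptprc, the leukocyte common antigen, had 12 and 5 reads, Lyz2 stayed at or under 0.264 CPM and Adgre1 was at 0. In WENR-plus medium proximal goblet markers were at 478 to 763 with Scramble-sgRNA and at 29.2 to 30.3 CPM with Cdx2-sgRNA, and immune markers at 1.67 to 1.78 and at 6.56 to 15.02 CPM. The sums of colonocyte markers overlapped (183 to 249 and 136 to 239.9 CPM), but their genes went opposite ways. Krt20 was at 20.3 to 25.9 CPM with Scramble-sgRNA and at 103.8 to 213 CPM with Cdx2-sgRNA. Car1 was at 144 to 207 and at 17.0 to 22.4 CPM, and Slc26a3 was also lower, at 4.50 to 4.64 and at 2.61 to 2.70 CPM. Distal immune markers were at 0.385 to 0.932 CPM with Scramble-sgRNA and at 2.26 to 3.64 CPM with Cdx2-sgRNA over both media. The part of these shifts in the members' values was not tested.

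After withdrawal of the growth factors 2 to 4 of the 8 were called in each kind of organoid. In distal Scramble-sgRNA organoids the count stood near the share of all genes called, and in distal Cdx2-sgRNA organoids not far above it. The distal counts are thus not read as a result about the members. In proximal Scramble-sgRNA organoids Msln, Anxa1 and Il1rn rose, which made 3 members called, where 17% of all genes were called (8.73% higher, 8.24% lower). Clu and Il1rn rose in proximal Cdx2-sgRNA organoids (6.4% of all genes, 3.42% higher, 2.98% lower). Msln rose and Il33 fell in distal Scramble-sgRNA organoids (26.4%, 12.2% higher, 14.2% lower), and Msln, Anxa1 and Clu rose and Il33 fell in distal Cdx2-sgRNA organoids (33.1%, 14.9% higher, 18.1% lower). The median log2 fold change of the 8 was 0.73 in the proximal and 0.95 in the distal Cdx2-sgRNA comparison, beside -0.03 and -0.10 over all genes. It was 1.02 in the proximal and 0.51 in the distal Scramble-sgRNA comparison, where the value of Ankrd1 rests on a group of 3 reads or fewer and in distal organoids is 1 of the 2 middle values. Same-numbered libraries of the 2 media deviated together in each of the 4 kinds of organoid (r = 0.28 to 0.59 across genes, which are not independent replicates). A fit that compared the media within these pairs, chosen after seeing that, called the same members and in proximal Cdx2-sgRNA organoids also Ankrd1 (1.49, adjusted p = 0.0488). Each medium comparison shares its libraries with the guide comparisons above. Scaling by total reads, without TMM, moved the median of all genes to -0.40, -0.61 and -0.77 in proximal Scramble-sgRNA, distal Scramble-sgRNA and distal Cdx2-sgRNA organoids.

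**Figure D3:**
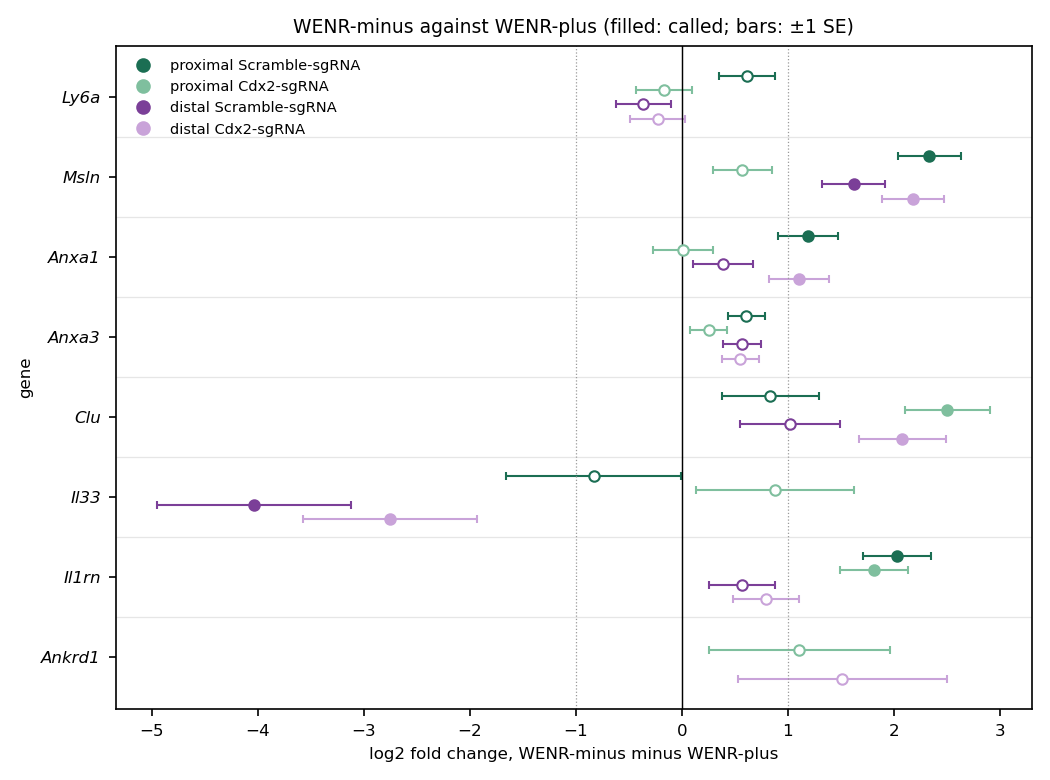
Log2 fold change of WENR-minus against WENR-plus organoids for each gene in the 4 kinds of organoid, with bars of 1 standard error and filled symbols for called genes. Il33 lay at -4.04 and -2.76 in distal organoids, and Msln was called in 3 of 4 comparisons; Ankrd1 is left out for Scramble-sgRNA, where a group held 3 reads or fewer.

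Among the surface proteins, Msln rose by a log2 fold change of 2.34 ± 0.30 in proximal Scramble-sgRNA (adjusted p = 0.00045), 1.62 ± 0.30 in distal Scramble-sgRNA (0.00135) and 2.18 ± 0.29 in distal Cdx2-sgRNA organoids (0.000116). Its value in proximal Cdx2-sgRNA organoids was 0.57 ± 0.28 (adjusted p = 0.207), from a level that was already high at 378 ± 31.6 CPM. Without distal Scramble-sgRNA WENR-plus replicate 2 the distal Scramble-sgRNA value was 2.27. Ly6a ranged from -0.36 to 0.61 and was not called.

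Anxa1 rose in proximal Scramble-sgRNA organoids, from 262 ± 21.7 to 601 ± 72.8 CPM (log2 fold change 1.19 ± 0.29, adjusted p = 0.00967), and in distal Cdx2-sgRNA organoids, from 328 ± 7.74 to 705 ± 86.2 CPM (1.11 ± 0.28, adjusted p = 0.00751). The first call was lost without proximal Scramble-sgRNA WENR-plus replicate 1 (1.15, adjusted p = 0.055), and the second fell under the fold threshold without distal Cdx2-sgRNA WENR-minus replicate 1 (0.98). Both also depended on the scaling, at 0.86 and 0.43 when libraries were scaled by total reads. Anxa3 had values of 0.25 to 0.61 in the 4 comparisons, under the fold threshold.

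Clu rose in both kinds of Cdx2-sgRNA organoid. The log2 fold change was 2.51 ± 0.40 in proximal (adjusted p = 0.00404) and 2.08 ± 0.41 in distal Cdx2-sgRNA organoids (adjusted p = 0.0015), from 410 to 2334 CPM and from 11.03 to 46.8 CPM. The distal value was 2.80 without distal Cdx2-sgRNA WENR-plus replicate 2. Scramble-sgRNA organoids had values of 0.84 ± 0.45 and 1.02 ± 0.47, which edgeR did not call, although DESeq2 (1.08, adjusted p = 0.0358) and the fit with no filter called the distal one. A difference between the guides in this response was not called by edgeR in proximal (1.67 ± 0.60, adjusted p = 0.135) or distal organoids (1.06 ± 0.62, adjusted p = 0.629). DESeq2 (1.67, adjusted p = 0.0353) and the fit with no filter called the proximal difference of Clu. With only the 4 libraries compared in the fit, the proximal Cdx2-sgRNA calls of Clu and Il1rn were lost (adjusted p = 0.128 for both).

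The cytokine genes went separate ways. Il33 fell in distal organoids, from 21.2 ± 14.8 to 1.27 ± 1.14 CPM with Scramble-sgRNA (log2 fold change -4.04 ± 0.91, adjusted p = 0.00446) and from 30.1 ± 13.8 to 4.46 ± 0.558 CPM with Cdx2-sgRNA (-2.76 ± 0.82, adjusted p = 0.0165). The first value ranged with single libraries left out, each of them still called, being -2.97 without distal Scramble-sgRNA WENR-plus replicate 2, -3.35 without WENR-minus replicate 1 and -5.50 without WENR-minus replicate 2. The second call was lost without distal Cdx2-sgRNA WENR-minus replicate 1 (-2.63, adjusted p = 0.089) or replicate 2 (-2.82, adjusted p = 0.078), and without distal Cdx2-sgRNA WENR-plus replicate 2 (-2.15, adjusted p = 0.096). Proximal values of -0.83 ± 0.83 and 0.88 ± 0.75 were not called. Il1rn rose in proximal organoids, from 222 ± 69.2 to 909 ± 210 CPM with Scramble-sgRNA (2.03 ± 0.32, adjusted p = 0.00118) and from 77.8 ± 21.4 to 273 ± 24.9 CPM with Cdx2-sgRNA (1.81 ± 0.32, adjusted p = 0.0058). The latter was lost without proximal Cdx2-sgRNA WENR-plus replicate 2 (1.56, adjusted p = 0.059). In distal organoids Il1rn had 0.57 ± 0.31 and 0.80 ± 0.31, and the second passed without distal Cdx2-sgRNA WENR-minus replicate 1 (1.04) or WENR-plus replicate 2 (1.2). Ankrd1 had 1.11 ± 0.85 in proximal and 1.52 ± 0.99 in distal Cdx2-sgRNA organoids and was not called, although the fit with no filter called the second.

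Summed differentiation markers stood higher after withdrawal, and in proximal Cdx2-sgRNA organoids the colonocyte rise was mostly that of Krt20. Summed colonocyte markers went from 183 to 249 CPM in WENR-plus to 6669 to 9957 CPM in WENR-minus medium in proximal Scramble-sgRNA libraries, and from 427 to 624 to 14895 to 15979 CPM in distal Cdx2-sgRNA libraries. Distal Scramble-sgRNA libraries went from 252 to 412 to 7043 to 11109 CPM. In proximal Cdx2-sgRNA libraries the sum went from 136 to 239.9 to 517 to 1591 CPM, with Krt20 going from 103.8 to 213 to 489 to 1572 CPM, while Car1 had 17.0 to 22.4 and then 11.4 to 19.9 CPM. The summed goblet markers there went from 29.2 to 30.3 to 44.8 to 50.4 CPM. Of the 14 crypt stem cell genes, 8 to 11 were called lower in each comparison, where 2.98% to 18.1% of all genes were lower, with a median log2 fold change of -1.54 to -2.63. Their part in the members' values was not tested.

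Proximal and distal organoids were then compared for each guide and medium, and the number of members called is read beside the share of all genes called, which was itself larger after Cdx2 loss. In Scramble-sgRNA organoids in WENR-plus medium 0 members were called by edgeR (1.75% of all genes, 0.68% higher, 1.07% lower), 3 of the 8 had an unadjusted p under 0.05, and DESeq2 called 1. Msln (1.61 ± 0.29, adjusted p = 0.00704) and Il1rn (1.70 ± 0.32, adjusted p = 0.0081) were higher in proximal Scramble-sgRNA organoids in WENR-minus medium (6.08% of all genes, 2.88% higher, 3.2% lower). Both of these calls were lost without distal Scramble-sgRNA WENR-minus replicate 2 (1.38, adjusted p = 0.07, and 1.47, adjusted p = 0.079), and that of Il1rn also without proximal Scramble-sgRNA WENR-minus replicate 2 (1.44). In Cdx2-sgRNA organoids 4 members were called higher in proximal than in distal WENR-minus cultures (34.6% of all genes, 18.1% higher, 16.5% lower), and in WENR-plus medium 4 were higher and 1 lower (17%, 7.4% higher, 9.57% lower). Without Ankrd1 these were 3 and 3 of 7 called higher.

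**Figure D4:**
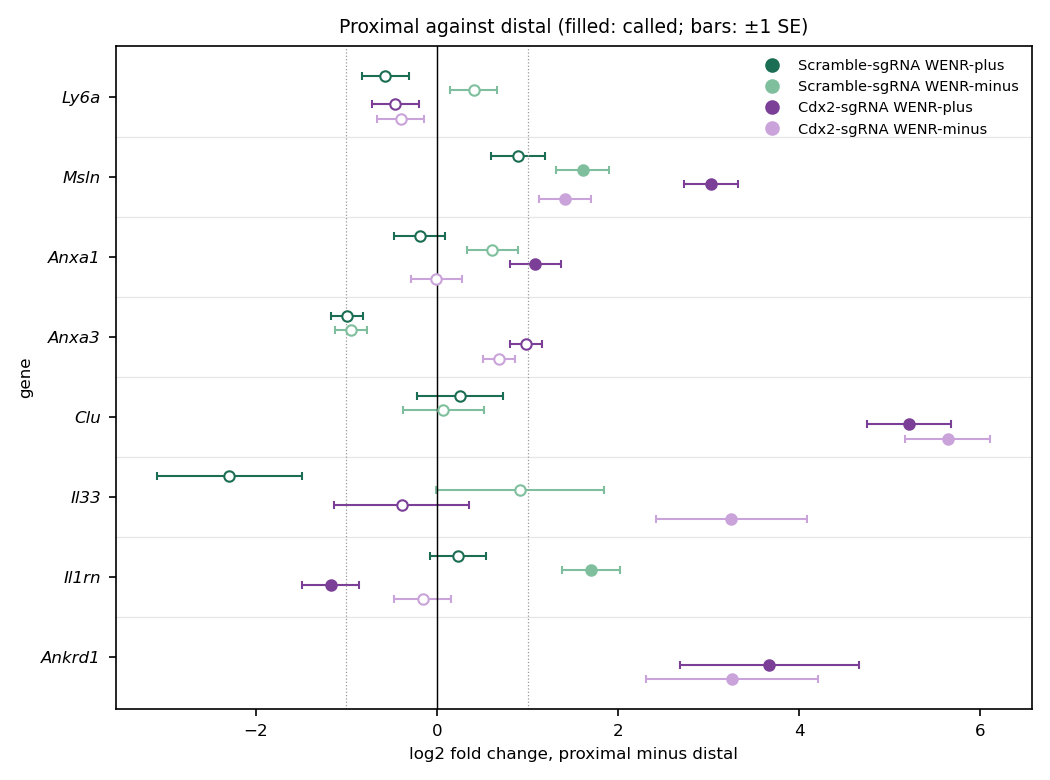
Log2 fold change of proximal against distal organoids for each gene, with bars of 1 standard error and filled symbols for called genes. Clu lay at 0.25 and 0.07 with Scramble-sgRNA and at 5.21 and 5.64 with Cdx2-sgRNA; Ankrd1 is left out for Scramble-sgRNA, where a group held 3 reads or fewer.

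Clu carried the clearest regional contrast, with no call between proximal and distal Scramble-sgRNA organoids and log2 fold changes of 5.21 ± 0.46 (adjusted p = 2.34e-05) and 5.64 ± 0.47 (adjusted p = 5.46e-06) between Cdx2-sgRNA organoids in WENR-plus and WENR-minus medium. Msln stood 3.03 ± 0.30 (adjusted p = 5.65e-05) and 1.41 ± 0.28 (adjusted p = 0.00187) higher in proximal Cdx2-sgRNA organoids. Ankrd1 was 3.67 ± 0.99 (adjusted p = 0.0177) and 3.26 ± 0.95 (adjusted p = 0.0145) higher, and Anxa1 1.08 ± 0.28 (adjusted p = 0.0156) higher in WENR-plus medium. Both lost their WENR-plus call without any of 3 libraries, with the lowest values, of 1.64 for Ankrd1 and 0.73 for Anxa1, when proximal Cdx2-sgRNA WENR-plus replicate 1 was left out. The others were distal Cdx2-sgRNA WENR-plus replicates 1 (3.54 and 1.11) and 2 (3.87 and 1.12), and both calls were also lost when only the 4 libraries compared were fitted (adjusted p = 0.0784 and 0.0512). In WENR-minus medium the Ankrd1 call was lost without proximal Cdx2-sgRNA WENR-minus replicate 1 (2.43) or distal Cdx2-sgRNA WENR-minus replicate 2 (2.62), and its value was 4.30 without distal replicate 1 of that group and 4.48 in WENR-plus medium without proximal Cdx2-sgRNA WENR-plus replicate 2. Without distal Cdx2-sgRNA WENR-plus replicate 2 the Clu value in WENR-plus medium was 5.91.

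Ly6a was not called in any regional comparison, with values of -0.57 to 0.41. Il33 was 3.25 ± 0.83 higher in proximal Cdx2-sgRNA organoids in WENR-minus medium (adjusted p = 0.00762), a call lost without distal Cdx2-sgRNA WENR-minus replicate 1 (adjusted p = 0.055). Il1rn was lower in proximal Cdx2-sgRNA WENR-plus organoids (-1.17 ± 0.31, adjusted p = 0.0173), and this was lost without proximal replicate 2 (-0.92) or distal replicate 2 (-0.79) of that group, or with only those libraries fitted (adjusted p = 0.0696). Anxa3 sat at the threshold, with -0.996 ± 0.18 (adjusted p = 0.0159) and -0.95 ± 0.18 (adjusted p = 0.00785) in Scramble-sgRNA and 0.99 ± 0.18 (adjusted p = 0.00223) and 0.69 ± 0.18 (adjusted p = 0.00756) in Cdx2-sgRNA organoids. The 2 Scramble-sgRNA values and the Cdx2-sgRNA WENR-plus value passed the threshold with RLE factors or DESeq2, and the Cdx2-sgRNA WENR-minus value with total-read scaling (1.39, adjusted p = 7.28e-05). The sign of the Anxa3 difference was thus opposite with and without Cdx2 loss in both media.

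Whether the effect of Cdx2 loss differed between regions was tested directly. In WENR-minus medium it was larger in proximal organoids for Clu (difference of log2 fold changes 5.57 ± 0.62, adjusted p = 0.000188) and Anxa3 (1.64 ± 0.25, adjusted p = 0.00153) and went lower for Il1rn (-1.86 ± 0.44, adjusted p = 0.0157), which made 3 members where 14.3% of all genes were called (5.17% higher, 9.08% lower). In WENR-plus medium it was larger for Clu (4.96 ± 0.64, adjusted p = 0.00116), Anxa3 (1.98 ± 0.25, adjusted p = 0.0011) and Msln (2.13 ± 0.41, adjusted p = 0.0122), against 4.98% of all genes (1.22% higher, 3.76% lower). Il33 (2.33 ± 1.24 and 1.90 ± 1.08) had large differences with wide errors that were called only when no filter was applied. For Anxa1 the WENR-minus difference was -0.62 ± 0.40 and the WENR-plus difference 1.28 ± 0.40 (adjusted p = 0.0907), and for Ly6a they were -0.81 ± 0.37 and 0.11 ± 0.37. The WENR-minus value of Msln (-0.19 ± 0.40) and the WENR-plus value of Il1rn (-1.41 ± 0.44, adjusted p = 0.0909) were not called by edgeR either, nor was Ankrd1, whose distal Scramble-sgRNA groups held 2 reads each. DESeq2 called the WENR-plus differences of Anxa1 (1.32, adjusted p = 0.0164) and Il1rn (-1.37, adjusted p = 0.0249), as did the fit with no filter, and total-read scaling called that of Il1rn (-1.51, adjusted p = 0.045). The WENR-minus difference of Anxa1 was called without proximal Cdx2-sgRNA WENR-minus replicate 1 (-1.14). The Clu and Anxa3 differences were called without each of the 8 libraries in turn, with Clu in WENR-plus medium at 5.65 without distal Cdx2-sgRNA WENR-plus replicate 2. The Il1rn difference was lost without proximal Cdx2-sgRNA WENR-minus replicate 2 (-1.77), distal Scramble-sgRNA WENR-minus replicate 2 (-1.63) or distal Cdx2-sgRNA WENR-minus replicate 2 (-1.57), and the Msln difference without distal Cdx2-sgRNA WENR-plus replicate 1 (2.19), proximal Scramble-sgRNA WENR-plus replicate 2 (2.04) or distal Scramble-sgRNA WENR-plus replicate 2 (1.59).

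Whether withdrawal acted differently after Cdx2 loss was tested in the same fit. In proximal organoids Msln rose less with Cdx2-sgRNA than with Scramble-sgRNA (-1.77 ± 0.40, adjusted p = 0.0377), the only member edgeR called, against 3.6% of all genes (1.67% higher, 1.93% lower), and the call was lost when any of 7 of the 8 libraries was left out (-1.94 to -1.55), with total-read scaling (-1.44) or with only those libraries fitted (adjusted p = 0.0571). The leave-one-out fit that kept it was without proximal Scramble-sgRNA WENR-minus replicate 2. With the media compared within pairs it was called, and so was Anxa1 (-1.22, adjusted p = 0.00512). DESeq2 called Msln, Clu and Anxa1 (-1.19, adjusted p = 0.0297), and Anxa1 was also called without proximal Cdx2-sgRNA WENR-minus replicate 1 (-1.74). The fit with no filter called Msln, Anxa1, Clu and Il33. In distal organoids 0 of the 8 were called by edgeR or DESeq2 and 0 had an unadjusted p under 0.05, and edgeR called 0% of all genes, with 1457 at an unadjusted p under 0.05 and 120 called by DESeq2. Between proximal and distal Scramble-sgRNA organoids 0 of the 8 differed in their response to withdrawal by either tool (0.0719% of all genes by edgeR, 0.0327% higher, 0.0392% lower), with 3 at an unadjusted p under 0.05, and with the media compared within pairs Il1rn was called (1.5, adjusted p = 0.0205). The fit with no filter called Il33 and Il1rn.

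Transcripts added detail for some members. Il1rn, which is known to make a secreted and an intracellular form from different first exons, has annotated starts at chr2:24336853 and chr2:24345288, 8435 bases apart. The upstream start took 51.2% to 60.5% of the reads assigned to either in all 16 libraries, also where the gene rose or fell several-fold. Il33 has starts 20676 bases apart, and its downstream transcript took 87.7% of all Il33 reads. In the 2 distal WENR-minus libraries of replicate 1, with 6 and 48 reads, all reads were assigned to the upstream start, while in replicate 2 with 29 and 58 reads 3.45% and 0% were, so that this split is not reliable at low counts. A retained-intron transcript took 42.4% of all Anxa3 reads, between 38.7% and 53.3% per library. Anxa1 and Clu were carried mostly by 1 protein-coding transcript each, with 92.5% and 91.8% of their reads.

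**Figure D5:**
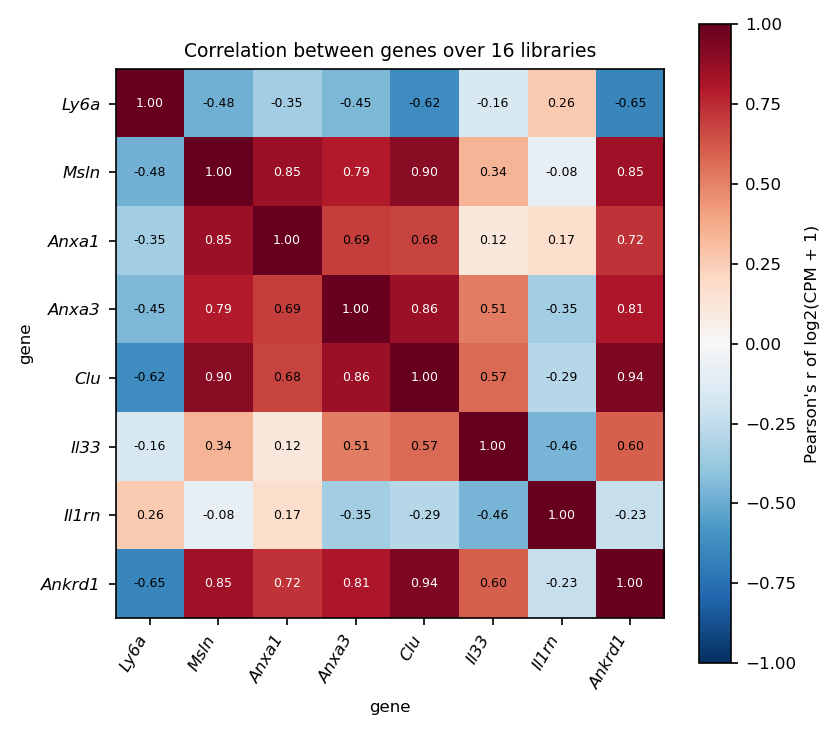
Pearson's r of log2(CPM + 1) between each pair of the 8 genes over the 16 libraries, with the value in each cell. Clu, Ankrd1, Msln, Anxa3 and Anxa1 form a block of positive values from 0.68 to 0.94, while Ly6a is negative against all of these. Ankrd1 held 0 to 7 reads in each Scramble-sgRNA library, so that its values rest mainly on the Cdx2-sgRNA libraries.

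Across the 16 libraries the levels of Clu and Ankrd1 ran closest together (Pearson's r = 0.94, log2(CPM + 1)), followed by Msln and Clu (0.90) and Anxa3 and Clu (0.86). Ly6a ran opposite to Clu (-0.62) and Ankrd1 (-0.65), and Il1rn had values from -0.46 to 0.26 against the other 7. The libraries fall into 8 groups that share medium and guide, so that these values describe the groups and carry no test. Ankrd1 held 0 to 7 reads in each Scramble-sgRNA library, so that its values rest mainly on the Cdx2-sgRNA libraries, where it was higher. Over 12526 genes with a mean of at least 1 CPM, the pattern of Clu was most like those of AL805899.1, Mycbpap and Pcolce (r = 0.98 for each), and that of Msln most like Itpripl2 (0.98), Pld2 (0.96) and Pik3cb (0.95). Ankrd1 was nearest to Csf1r (0.98), Ifi204 (0.96) and Dnm3 (0.96). For the annexins the nearest were Tubb2a (0.98), Spns2 (0.93) and Vill (0.93) for Anxa3, and Tlr4 (0.94), Chic2 (0.91) and Pik3cb (0.90) for Anxa1. Mamld1 (0.91) and Alcam (0.90) were among the 3 nearest to Il33. Il1rn was nearest to Rbm45 (0.94), Lrch3 (0.94) and Adrm1 (0.90), and Ly6a to Gulp1 (0.85), Vim (0.80) and Btbd2 (0.79).

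The genes around the members were followed in lists written by hand, described here by counts and medians without a test of the list. Of 21 tested YAP and TEAD target genes other than Ankrd1, Cdx2 loss raised 8 and lowered 0 in proximal WENR-plus medium, and raised 12 and lowered 3 in proximal WENR-minus medium, with median log2 fold changes of 0.77 and 1.33. Over all genes 6.93% rose and 8.94% fell in proximal WENR-plus medium, and 9.04% rose and 12.1% fell in WENR-minus medium, which is also the background of the lists that follow. Ccn2, a matrix protein and a classic YAP target, rose from 1.52 to 201 CPM (7.01 ± 0.97, adjusted p = 0.00053) and from 0.949 to 104 CPM (6.77 ± 0.99, adjusted p = 0.00046). Igfbp3, an insulin-like growth factor binding protein, rose from 0.356 to 45.5 CPM (adjusted p = 0.0011) and from 0.363 to 38.5 CPM (6.69 ± 1.08, adjusted p = 0.00084). The EGF receptor ligands Ereg (-2.25 ± 0.70, adjusted p = 0.03) and Areg (-2.17 ± 0.74, adjusted p = 0.045) fell in WENR-minus medium. In distal organoids 0 of the 21 were called in WENR-plus medium (0.262% of all genes) and 3 in WENR-minus medium (5.25%), among them Ccn2 (3.71 ± 1.00, adjusted p = 0.041). Of 20 Hippo pathway genes, 2 rose and 3 fell in proximal WENR-plus and 2 rose and 1 fell in WENR-minus medium. These counts stood near the shares of all genes given above and are not read as a change of the pathway. Wwtr1, which encodes the YAP partner TAZ, rose from 4.10 to 84.6 CPM in WENR-minus medium (4.39 ± 1.2, adjusted p = 0.018), and Nf2, an upstream activator of the Hippo kinases, fell from 109 to 45.3 CPM (-1.26 ± 0.18, adjusted p = 0.00036).

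Among 22 tested fetal and repair genes other than the members, 8 rose and 1 fell with Cdx2 loss in proximal WENR-plus medium, and 8 rose and 3 fell in WENR-minus medium, with medians of 0.93 and 0.23. Ctse, an aspartic protease of the stomach and the fetal gut, rose from 0.161 to 166 CPM in WENR-minus medium (9.88 ± 1.00, adjusted p = 3.9e-05). Ptgs2, the inducible cyclooxygenase, rose in proximal WENR-plus (5.15 ± 1.30, adjusted p = 0.015) and in distal WENR-minus organoids (4.99 ± 1.17, adjusted p = 0.025). Emp1, an epithelial membrane protein, fell from 4721 to 456 CPM in proximal WENR-minus medium (-3.37 ± 0.56, adjusted p = 0.0011). Withdrawal raised 11 and lowered 1 of the 22 in proximal Scramble-sgRNA organoids (8.73% and 8.24% of all genes) and raised 12 and lowered 3 in distal Cdx2-sgRNA organoids (14.9% and 18.1%). There Sprr1a, a cornified envelope precursor that rises in injured gut, gained 3.88 ± 0.62 in proximal Scramble-sgRNA (adjusted p = 0.0012), and Hmga2, a chromatin protein of fetal tissues, lost 3.65 in distal Cdx2-sgRNA organoids (-3.65 ± 0.36, adjusted p = 1.7e-05).

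Of 10 other annexins, 3 rose and 0 fell with Cdx2 loss in proximal WENR-plus medium, and 2 rose and 2 fell in WENR-minus medium. Anxa8 rose in both (2.44 ± 0.44, adjusted p = 0.0027, and 1.82 ± 0.41, adjusted p = 0.0064), in distal WENR-minus medium (1.94 ± 0.41, adjusted p = 0.016), and by 2.52 to 5.23 with withdrawal in each kind of organoid. In the Ly6 family, of which 10 others were tested, 2 rose and 2 fell in proximal WENR-plus, 2 rose and 3 fell in proximal WENR-minus, 1 rose in distal WENR-plus and 2 rose in distal WENR-minus medium. Ly6d rose with Cdx2 loss in all 4 comparisons, by 5.25 ± 0.46 (adjusted p = 2.3e-05) and 4.68 ± 0.44 (adjusted p = 2.2e-05) in proximal and 3.43 ± 0.46 (adjusted p = 0.014) and 3.39 ± 0.42 (adjusted p = 0.002) in distal organoids. Ly6g fell from 59.2 to 0.884 CPM and from 170 to 0.758 CPM in proximal WENR-plus and WENR-minus organoids. Of 14 other genes of the interleukin 1 family and its receptors, 4 rose and 2 fell, then 6 rose and 2 fell. Il18r1, a chain of the interleukin 18 receptor, rose from 0.244 to 30.3 CPM and from 1.53 to 37.8 CPM, and Casp1, which cleaves interleukins 1 beta and 18, fell in both media (-1.62 ± 0.27, adjusted p = 0.0017, and -3.11 ± 0.29, adjusted p = 2.1e-05).

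Of 21 tested interferon-inducible genes, a group in which Ly6a is often counted, 2 rose and 1 fell with Cdx2 loss in proximal WENR-plus medium and 3 rose and 3 fell in WENR-minus medium. Isg20, an RNA exonuclease, rose in both (3.11 ± 0.43, adjusted p = 0.00049, and 1.52 ± 0.40, adjusted p = 0.015), while Irf7, an interferon regulatory factor, fell in WENR-minus medium (-1.94 ± 0.65, adjusted p = 0.042). Of the 14 crypt stem cell genes, 4 rose and 2 fell with Cdx2 loss in proximal WENR-plus medium and 3 rose and 1 fell in WENR-minus medium. Cd44, a hyaluronan receptor and Wnt target, rose in both (2.14 ± 0.36, adjusted p = 0.0017, and 1.59 ± 0.36, adjusted p = 0.0062), and Smoc2, a matrix protein of the crypt base, fell from 40.8 to 0.362 CPM in WENR-plus medium.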

How the data were processed

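RNA-seq of mouse colon organoids was analysed from per-sample transcript tables. Per the study's methods, the authors ran Salmon (1.1.0 in the submitters' processing notes) against GENCODE transcripts of the mouse (mm10) and deposited for each transcript an estimated count and a TPM value, without pooling replicates. The labels give the molecule as DNA, while their protocol describes a stranded total RNA kit. Of 140748 transcripts, 139864 were matched to GENCODE genes here, and the others (0.257% to 0.509% of reads) were left out. Mitochondrial rRNA took 15.4% to 28.0% of reads.

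Estimated counts were summed per gene and rounded. edgeR 4.0.16 (R 4.3.3; filterByExpr, TMM, glmQLFit, 1 coefficient per group over all 16 libraries, 8 residual degrees of freedom) tested 15289 genes, with Benjamini-Hochberg adjustment over all of them; calls needed a log2 fold change beyond 1 in either direction and an adjusted p below 0.05. The test was checked on simulated data. SE is the absolute log2 fold change over the square root of F. TPM was summed per gene. Counting intervals are exact (95%), a floor of 3 reads per group was used, and k-mers had 31 bases. Replicates are the labels' biological replicates, and p-values rest on the spread between these libraries. The main fit treats all 16 as independent, also for guide and region. Same-numbered libraries of the 2 media nevertheless deviated together (r = 0.28 to 0.59). No 2 libraries were duplicates (at most 1.28% equal counts over 120 pairs).

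The members and gene lists were chosen with earlier results of these data known. A further marker of the set, and 1 gene among the likeness values, are not reported here. Named were the members and, of each list, at most the 2 highest and 2 lowest called genes with at least 5 CPM, and for likeness the 3 genes with the highest r. Where a gene's lower group was at or under the floor, levels replaced fold changes. Alternatives were RLE factors, total-read scaling, other filters, length-scaled counts, a replicate block over all libraries or within each region and guide, fits of single comparisons, DESeq2 1.42.0, no fold threshold and leaving out each library.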

Additional observations from a re-analysis of the deposited data

Results flagged for a closer look

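For 7 results the effect of Cdx2 loss or of withdrawal differed between groups in a direct test of the difference (edgeR, adjusted over all genes). Between proximal and distal organoids, the effect of Cdx2 loss differed by 5.57 and 4.96 on the log2 scale for Clu in WENR-minus and WENR-plus medium, by 1.64 and 1.98 for Anxa3, by -1.86 for Il1rn in WENR-minus medium and by 2.13 for Msln in WENR-plus medium. The rise of Msln with withdrawal in proximal organoids was smaller with Cdx2-sgRNA, by -1.77. This Msln call was lost without any of 7 of the 8 libraries, with total-read scaling and with only its own libraries fitted, and the calls of the Il1rn difference and of the Msln difference between regions were each lost without any of 3 single libraries.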

How the results depend on the processing

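Of 1950 member values recomputed under the alternatives, 1762 kept their direction and side of the threshold, 61 gained a call and 52 lost one. A further 75 values changed sign without being called in either fit, and 0 called values reversed. The number of members called stayed within 1.5 times of the main count in 212 recomputed counts and moved further in 36. With 2 libraries a group, low-count members (Ankrd1, Il33) have wide errors.

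Leaving out each library in turn gave 2 to 3 members called for withdrawal in proximal Scramble-sgRNA, 1 to 2 in proximal Cdx2-sgRNA, 2 in distal Scramble-sgRNA and 3 to 4 in distal Cdx2-sgRNA organoids. For Cdx2 loss it gave 6 to 7 in proximal WENR-minus, 5 to 7 in proximal WENR-plus, 2 in distal WENR-minus and 1 to 2 in distal WENR-plus medium. For region it gave 0 to 3 and 0 to 1 with Scramble-sgRNA (WENR-minus, WENR-plus), and 3 to 4 and 3 to 5 with Cdx2-sgRNA. For differences in the Cdx2 effect it gave 2 to 4 (WENR-minus) and 2 to 3 (WENR-plus), and for the guide's effect on withdrawal 0 to 1 in proximal organoids.

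Fitting only the libraries compared left 0 members called for withdrawal in proximal Cdx2-sgRNA organoids, 0 for distal Cdx2 loss and 3 for region with Cdx2-sgRNA (both WENR-plus), and 0 for the guide's effect on proximal withdrawal. At least 10 counts in every library, which kept fewer members testable, gave 1 for distal Scramble-sgRNA withdrawal and 2 for region with Cdx2-sgRNA in WENR-minus medium. No filter gave 4 and 3 for distal Cdx2 loss (WENR-minus, WENR-plus), 2 for region with Scramble-sgRNA and 6 for the difference in the Cdx2 effect (both WENR-plus), 4 for the guide's effect on proximal withdrawal and 2 for the regional difference in Scramble-sgRNA withdrawal. DESeq2 gave 2 for distal Cdx2 loss and 1 for region with Scramble-sgRNA (both WENR-plus), 5 for the WENR-plus difference in the Cdx2 effect and 3 for the guide's effect on proximal withdrawal. RLE factors and no fold threshold each gave 1 for region with Scramble-sgRNA in WENR-plus medium. The causes were not tested.

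The deviations of same-numbered libraries correlated at over 0.1 in 4 of 4 pairs of groups that differ only in medium (0.28 to 0.59) and in 5 of the other 24 pairs (-0.0594 to 0.189), and the labels do not tie numbers to mice. With a replicate block within each region and guide, chosen after seeing this and leaving 4 residual degrees of freedom, 2 members were called for the guide's effect on proximal withdrawal and 1 for the regional difference in Scramble-sgRNA withdrawal. Over all genes that block gave 1546 against 978 for proximal Cdx2-sgRNA withdrawal, 1596 against 550 and 48 against 0 for the guide's effect on proximal and distal withdrawal, and 199 against 11 for the regional difference. With a replicate block over all libraries 2 members were called for distal Cdx2 loss in WENR-plus medium, and over all genes 65 against 40 there and 829 against 550 for the guide's effect on proximal withdrawal.

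Total-read scaling, chosen after seeing the data, left 0 members called for the guide's effect on proximal withdrawal. It shifted the calls over all genes for withdrawal from 2283 higher and 2772 lower to 1091 and 5067 in distal Cdx2-sgRNA, from 1872 and 2167 to 914 and 3938 in distal Scramble-sgRNA and from 1335 and 1260 to 749 and 2206 in proximal Scramble-sgRNA organoids. For region in WENR-minus medium it shifted them from 2761 and 2530 to 5536 and 1510 with Cdx2-sgRNA and from 440 and 489 to 1158 and 352 with Scramble-sgRNA, for distal Cdx2 loss in WENR-minus medium from 343 and 459 to 253 and 861, and for the WENR-minus difference in the Cdx2 effect from 791 and 1389 to 1616 and 971. Counts over all genes moved by over 1.5 times for distal Cdx2 loss in WENR-plus medium (40; 586 with no filter, 175 with DESeq2, 17 with the strict filter, 4 with its own libraries), for withdrawal in proximal Cdx2-sgRNA organoids (978; 0 with its own libraries) and for region with Scramble-sgRNA in WENR-plus medium (267; 1039 with no filter, 538 with DESeq2).

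Other counts over all genes moved as well. For proximal Cdx2 loss the strict filter gave 1790 against 3239 (WENR-minus) and 1258 against 2427 (WENR-plus), and for distal loss in WENR-minus medium no filter gave 1531 and its own libraries 424 against 802. No filter gave 1484 against 978 for proximal Cdx2-sgRNA withdrawal. For region, no filter gave 1619 and the strict filter 585 against 929 (Scramble-sgRNA, WENR-minus), the strict filter 107 against 267 (Scramble-sgRNA, WENR-plus), 3366 against 5291 (Cdx2-sgRNA, WENR-minus) and 1317 against 2595 (Cdx2-sgRNA, WENR-plus; 1478 with its own libraries). For the WENR-plus difference in the Cdx2 effect, against 762, no filter gave 1863, DESeq2 1234, its own libraries 498 and the strict filter 426. For the guide's effect on proximal withdrawal, against 550, no filter gave 1596, DESeq2 1166, total-read scaling 933, length-scaled counts 365 and its own libraries 82. For the guide's effect on distal withdrawal, against 0, no filter gave 354, DESeq2 120, the block over all libraries 8, and total-read scaling and the strict filter 4 each. For the regional difference in Scramble-sgRNA withdrawal, against 11, no filter gave 454, DESeq2 159, the block over all libraries 20, total-read scaling 19 and its own libraries 3.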
